A study of Mus musculus with 18 samples.

Results

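The 7 genes described here encode regulators of proximal tubule identity and metabolism. They were chosen by name, as hepatocyte nuclear factors (Hnf4a, Hnf4g), nuclear receptors (Ppara, Rxra, Nr1h4, Esrra) and a coactivator (Ppargc1a), and the rule uses no measured value. These genes and the gene lists below were nevertheless chosen with earlier results of these data known. Their counts beside shares of all genes are therefore descriptive. All 7 were found among the 24062 genes of the table, and all 7 passed the filter on low values that left 14604 genes for testing. RNA was sequenced from kidney cortex of C57Bl/6 mice in 18 libraries, which form 6 groups of 3. At 3 weeks of aristolochic acid I (AAI), a nephrotoxin from Aristolochia plants, kidneys came from Klf6PTKO mice or from Klf6fl/fl mice, whose Klf6 allele is floxed. At 6 weeks the same 2 genotypes had received AAI for 3 weeks and were then left 3 weeks for remodeling. The remaining 2 groups are Klf6PTKO and Klf6fl/fl mice given DMSO, the vehicle. Each genotype has 1 DMSO group, which is the control for both times, so the 3-week and the 6-week comparisons share control libraries. The labels name neither the Cre driver behind PTKO, nor ages, nor the week of the DMSO kidneys, and do not state whether each library is a different animal. P-values therefore measure the spread between these libraries, which may be technical in part.

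Proximal tubule cells reabsorb most of the glomerular filtrate and draw their energy mainly from fatty acid oxidation in mitochondria. HNF4A and its paralog HNF4G are nuclear receptors that bind DNA as dimers, and HNF4A is required in mice for the mature proximal tubule gene programme, including transporters and brush border proteins. PPAR alpha, encoded by Ppara, binds fatty acids and turns on genes of fatty acid oxidation, FXR, encoded by Nr1h4, binds bile acids, and both pair on DNA with the retinoid X receptor that Rxra encodes. ERR alpha, encoded by Esrra, is an orphan receptor that controls genes of the mitochondrial respiratory chain and needs the coactivator PGC-1 alpha, encoded by Ppargc1a, for full activity.

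Promoter windows of 300 bases, from 250 before to 50 after a RefSeq start on build GRCm38.p6, were matched for 6 of the 7 genes, with 2 windows each for Hnf4a and Rxra. Positions are counted from 1 at the 5′ end of the window. Of the 3 windows printed, that of Hnf4a is shown for the letters CACCC, the core of sites bound by Kruppel-like factors, the family of Klf6, that of Nr1h4 for AGGTCA, the half-site of nuclear receptors, and that of Rxra as a GC-rich promoter with GC boxes. Capitals mark CACCC, read as GGGTG on the other strand, in the window of Hnf4a (chr2:163546905-163547204, plus strand), AGGTCA, read as TGACCT, in that of Nr1h4 (chr10:89506609-89506908, minus strand), and GGGCGG, read as CCGCCC, in that of Rxra (chr2:27676951-27677250, plus strand).
Hnf4a, downstream start: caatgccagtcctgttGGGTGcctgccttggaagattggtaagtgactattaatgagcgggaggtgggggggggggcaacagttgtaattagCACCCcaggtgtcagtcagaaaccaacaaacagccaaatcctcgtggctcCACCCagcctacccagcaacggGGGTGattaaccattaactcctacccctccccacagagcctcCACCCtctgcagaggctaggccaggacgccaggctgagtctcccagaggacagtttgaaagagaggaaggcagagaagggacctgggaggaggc
Nr1h4: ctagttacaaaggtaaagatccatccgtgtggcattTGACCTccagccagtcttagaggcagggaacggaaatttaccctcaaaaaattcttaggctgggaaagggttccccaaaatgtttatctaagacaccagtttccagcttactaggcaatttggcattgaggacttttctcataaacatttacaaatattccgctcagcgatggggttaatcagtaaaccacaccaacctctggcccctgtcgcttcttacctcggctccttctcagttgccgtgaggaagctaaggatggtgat
Rxra, upstream start: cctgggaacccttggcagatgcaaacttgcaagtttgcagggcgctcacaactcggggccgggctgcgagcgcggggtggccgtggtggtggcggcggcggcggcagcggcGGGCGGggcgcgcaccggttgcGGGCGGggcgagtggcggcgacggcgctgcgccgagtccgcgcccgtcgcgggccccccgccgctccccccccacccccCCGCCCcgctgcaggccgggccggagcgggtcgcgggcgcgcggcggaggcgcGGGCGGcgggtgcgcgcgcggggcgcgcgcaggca

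The downstream Hnf4a window holds CACCC at 5 places and lies 40298 bases from the upstream window, which holds it at 3. CACCC is common, and 57.5% of the 32851 mouse promoter windows in the RefSeq table hold it on either strand. It also lay in the windows of Ppara, Rxra and Esrra, and at no place in those of Nr1h4 and Ppargc1a. The half-site AGGTCA, in 16.3% of all windows, lay in the Nr1h4 window at bases 37 to 42 and in the downstream Rxra window at 2 places. The Nr1h4 window belongs to a start inside the annotated gene (chr10:89454234-89533585, minus strand), not at its 5′ end, and describes that start only. GGGCGG, in 35.7% of all windows, lay in the upstream Rxra window at 4 places, in the Ppara and Esrra windows at 2 places each and in the upstream Hnf4a window at 1. The GC content was 83% in the upstream Rxra window, 74.7% in that of Ppara and 66% in that of Esrra, against 57.3% in the downstream Hnf4a window, 48.7% in that of Ppargc1a and 45.7% in that of Nr1h4. CACCC and GGGCGG matches may overlap. These motifs were chosen after the windows had been read, and a match is a description of the letters only.

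The shallowest library held 11722625 recovered reads and the deepest 27213219, and the 7 genes had from 76 reads (Hnf4g) to 26704 reads (Hnf4a) in a library. Klf6 itself had 310, 280 and 229 CPM (reads scaled to the library total) in the libraries labelled PTKO at 3 weeks of AAI, against 308, 273 and 256 CPM in fl/fl libraries. Under DMSO Klf6 had 40.2, 43.2 and 56.7 CPM in the libraries labelled PTKO and 39.7, 39.2 and 42.3 CPM in fl/fl libraries. At 6 weeks it had 228, 254 and 370 CPM in libraries labelled PTKO and 284, 201 and 270 CPM in fl/fl libraries, so RNA of whole cortex, where other cells also express Klf6, does not check the genotype label. Summed over 8 proximal tubule markers, the level was 5440 to 7920 CPM (PTKO) and 2800 to 4950 CPM (fl/fl) at 3 weeks, 5850 to 8630 CPM (PTKO) and 3450 to 6380 CPM (fl/fl) at 6 weeks, and 20300 to 22300 CPM (PTKO) and 20000 to 21800 CPM (fl/fl) under DMSO. These defining markers were thus high in the DMSO cortex, as the label of the tissue calls for. Of the 14604 genes tested, 8466 were higher and 2651 lower in fl/fl kidneys at 3 weeks of AAI than under DMSO, and 5353 and 4999 when libraries were scaled by median-of-ratios size factors. The median change of all genes against DMSO was 0.42 (PTKO) and 0.45 (fl/fl) at 3 weeks and 0.36 (PTKO) and 0.45 (fl/fl) at 6 weeks on the log2(CPM + 1) scale, so changes are also given relative to that median.

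All 7 genes were lower under AAI than under DMSO in each genotype at 3 weeks, and most of these falls passed the test. In kidneys labelled PTKO 6 of the 7 were called lower at 3 weeks (limma, adjusted p under 0.05, 13.9% of all genes tested called lower) and 6 at 6 weeks (11.4% of all genes), Ppargc1a being the exception at both times. In fl/fl kidneys all 7 were called lower at 3 weeks (18.2% of all genes), with changes of -1.95 to -0.52 on the log2(CPM + 1) scale, and 6 at 6 weeks (13.9% of all genes), again without Ppargc1a. Hnf4a, Hnf4g, Ppara and Nr1h4 fell the most in fl/fl kidneys at 3 weeks, to mean CPM of 0.242 (Hnf4g) to 0.351 (Nr1h4) of the DMSO mean, and Ppargc1a, Esrra and Rxra kept 0.556, 0.633 and 0.70 of it. The median of the 7 changes in kidneys labelled PTKO was -0.91 at 3 weeks, against 0.42 over all genes, and -0.73 at 6 weeks, against 0.36. The median in fl/fl kidneys was -1.53 at 3 weeks and -1.09 at 6 weeks, both against 0.45 over all genes. Under median-of-ratios scaling more genes in all were called lower, 31.3% and 28.9% in kidneys labelled PTKO at 3 and 6 weeks and 34.2% and 32.5% in fl/fl kidneys. Replicate 2 of PTKO at 6 weeks and replicate 2 of PTKO DMSO stood apart in the sum of 6 adipocyte markers, with 420 and 97.6 CPM. Replicate 2 of fl/fl at 6 weeks was the shallowest library (11722625 reads), although replicate 3 of that group (12931815 reads) was nearly as shallow and was kept. With replicate 2 of each of these 3 groups left out (the 3 libraries that stood apart), a choice made after seeing the data, 6 and 4 genes were called lower in kidneys labelled PTKO at 3 and 6 weeks, and 7 and 6 in fl/fl kidneys. Calls over all genes in either direction were then 9889 and 8576 in kidneys labelled PTKO and 11117 and 10763 in fl/fl kidneys.

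**Figure D1:**
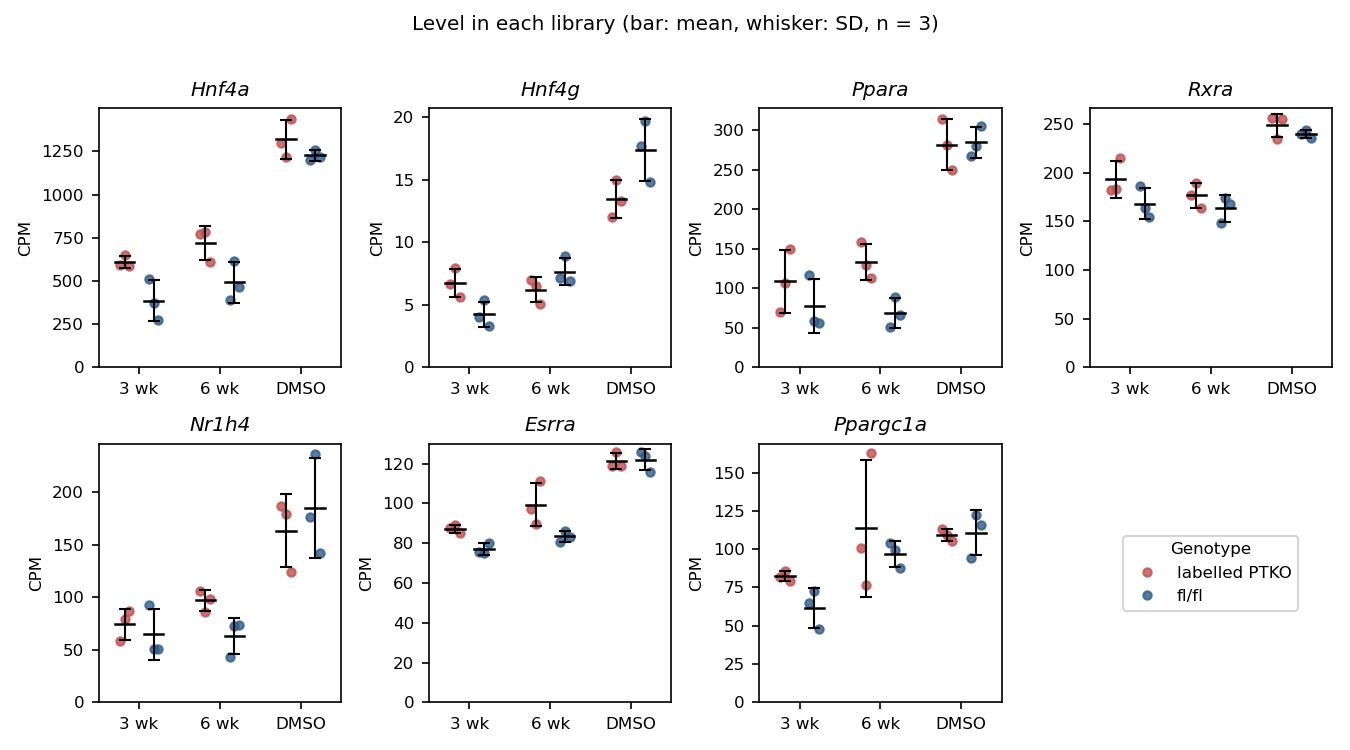
Level of each of the 7 genes in CPM (vertical axis, from 0) by treatment group (3 weeks, 6 weeks, DMSO), with 1 point per library, PTKO in red left of fl/fl in blue, and a bar and whisker for the mean and SD of 3 libraries. All AAI points lie below all DMSO points of their genotype in each panel, except that Ppargc1a overlaps at 6 weeks.

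No AAI library reached the DMSO range of its genotype for any of the 7 genes at 3 weeks, and at 6 weeks the ranges overlapped for Ppargc1a alone. Lower levels with no overlap were seen for 7 of 7 genes at 3 weeks in kidneys labelled PTKO (15.3% of all genes tested) and for 7 of 7 in fl/fl kidneys (19.9% of all genes). At 6 weeks they were seen for 6 of 7 in kidneys labelled PTKO (12.7% of all genes) and 6 of 7 in fl/fl kidneys (15.7%). Beside these falls, 7 and 6 of the 8 proximal tubule markers were called lower in kidneys labelled PTKO at 3 and 6 weeks, and all 8 in fl/fl kidneys at both times. The 7 macrophage markers summed to 1520 to 3020 CPM (PTKO) and 4650 to 7830 CPM (fl/fl) at 3 weeks, to 942 to 2170 CPM (PTKO) and 2710 to 4670 CPM (fl/fl) at 6 weeks, and to 109 to 131 CPM (PTKO) and 119 to 167 CPM (fl/fl) under DMSO. The 6 fibroblast markers summed to 1490 to 1880 CPM (PTKO) and 3240 to 4260 CPM (fl/fl) at 3 weeks, to 253 to 979 CPM (PTKO) and 1520 to 2590 CPM (fl/fl) at 6 weeks, and to 112 to 274 CPM (PTKO) and 138 to 323 CPM (fl/fl) under DMSO. The part of cell composition in the falls was not tested, and in RNA of whole cortex fewer proximal tubule cells and less RNA per cell cannot be told apart.

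**Figure D2:**
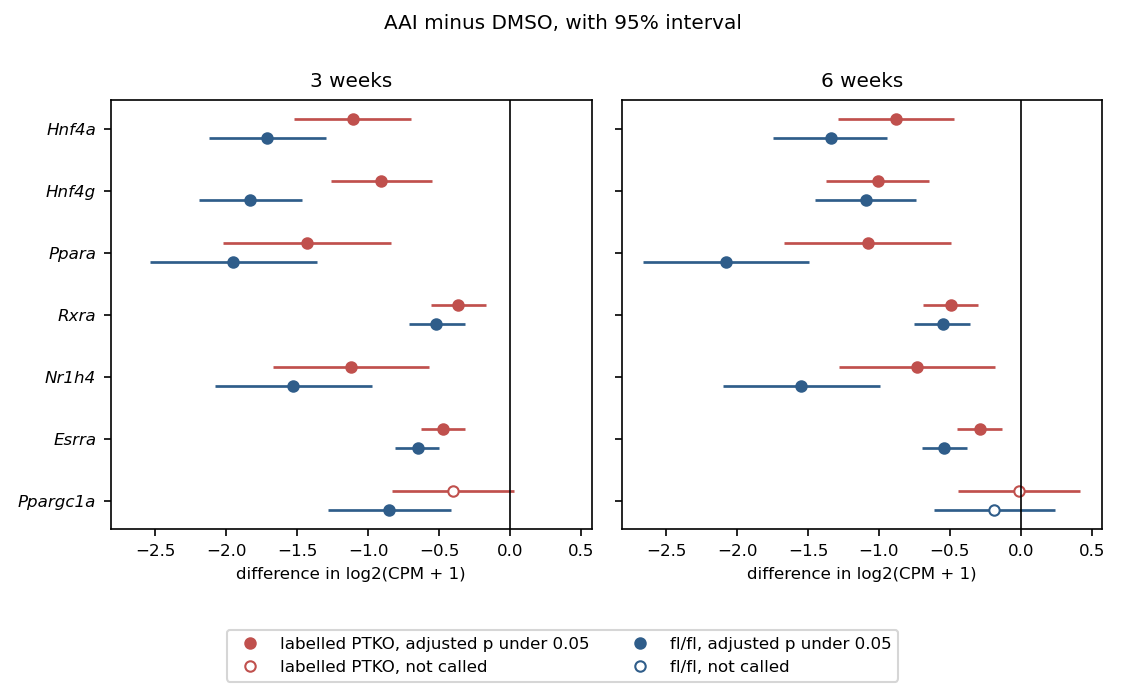
Change of each gene against DMSO in log2(CPM + 1) (horizontal axis) with its 95% interval, at 3 weeks (left) and 6 weeks (right), PTKO in red above fl/fl in blue, filled where the adjusted p was under 0.05. The open points are those of Ppargc1a, in PTKO at 3 weeks and in both genotypes at 6 weeks.

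Hnf4a (ENSMUSG00000017950.16, chr2:163506808-163572910, plus strand, mm10) was the most abundant of the 7 per kilobase of exon. At 3 weeks of AAI it had 592, 647 and 589 CPM in the libraries labelled PTKO and 509, 373 and 272 CPM in fl/fl libraries. Hnf4a at 6 weeks had 769, 785 and 607 CPM in the libraries labelled PTKO and 387, 618 and 467 CPM in fl/fl libraries. Hnf4a under DMSO had 1300, 1220 and 1440 CPM in the libraries labelled PTKO and 1200, 1260 and 1220 CPM in fl/fl libraries. The DMSO libraries stood together at the top, and the fl/fl libraries at 3 weeks were the lowest and the most spread. Hnf4a fell in kidneys labelled PTKO, with log2 changes of -1.11 ± 0.19 at 3 weeks (SE, limma, adjusted p = 9.12e-05) and -0.88 at 6 weeks (0.000941), or -1.53 and -1.24 relative to the median of all genes. The changes in fl/fl kidneys were -1.71 (limma, adjusted p = 6.8e-07) and -1.34 (1.31e-05), or -2.16 and -1.80 relative to that median. An antisense gene, Hnf4aos, overlaps Hnf4a and shares 0 exon bases with it.

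Set against the proximal tubule markers of the same library, Hnf4a lost less than they did. Per 1000 CPM of those 8 markers, it stood at 109, 89.9 and 74.4 CPM in the libraries labelled PTKO and at 103, 111 and 97.1 CPM in fl/fl libraries at 3 weeks. At 6 weeks the ratio was 89.1, 94.7 and 104 CPM (PTKO) and 112, 96.8 and 101 CPM (fl/fl), and under DMSO 59.8, 60.0 and 64.5 CPM (PTKO) and 55.6, 57.7 and 60.8 CPM (fl/fl). Every AAI library lay above every DMSO library. The other 6 genes had ratios to the marker sum in AAI groups whose means were also above the DMSO mean of the same genotype. The smallest rise of such a mean was that of Ppara in fl/fl kidneys at 6 weeks, 14.3 ± 0.427 CPM against 13.5 ± 1.54 CPM under DMSO (SD, n = 3 each), and its libraries overlapped with those of DMSO. These ratios are given without a test.

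Hnf4g (ENSMUSG00000017688.14, chr3:3508030-3658052, plus strand) was the least abundant. Its 3-week level was 6.65, 7.90 and 5.63 CPM in the libraries labelled PTKO and 3.99, 5.35 and 3.32 CPM in fl/fl libraries. Its 6-week level was 7.01, 6.52 and 5.06 CPM in the libraries labelled PTKO and 7.13, 8.87 and 6.88 CPM in fl/fl libraries. Its DMSO level was 12, 15 and 13.3 CPM in the libraries labelled PTKO and 17.7, 19.7 and 14.8 CPM in fl/fl libraries. The DMSO libraries were again all above the AAI libraries, and the 3-week fl/fl libraries were the lowest group. Hnf4g fell in both genotypes, with log2 changes in kidneys labelled PTKO of -0.91 at 3 weeks (limma, adjusted p = 0.00018) and -1.01 at 6 weeks (0.000101). Those in fl/fl kidneys were -1.83 (limma, adjusted p = 7.88e-08) and -1.09 (2.8e-05). Relative to the median of all genes they were -1.32 and -1.37 (PTKO) and -2.28 and -1.55 (fl/fl). The pseudocount of 1 understates the change of a gene this low. The ratio of Hnf4g to Hnf4a within a library differed between AAI and DMSO by -0.12 at 3 weeks on the log2 scale (exact permutation test within genotype, two-sided, p = 0.525, adjusted over 8 ratio tests 0.70) and by -0.04 at 6 weeks (exact p = 0.735). These values join genotypes with opposite signs, 0.11 (PTKO) and -0.35 (fl/fl) at 3 weeks and -0.24 (PTKO) and 0.15 (fl/fl) at 6 weeks, given without a test. At 3 weeks the ratio was 0.0112, 0.0122 and 0.00956 in libraries labelled PTKO and 0.00784, 0.0143 and 0.0122 in fl/fl libraries, which overlapped. Within AAI at 6 weeks the ratio was 0.00912, 0.00831 and 0.00834 in libraries labelled PTKO and 0.0184, 0.0144 and 0.0147 in fl/fl libraries, with no overlap, and under DMSO it was 0.00923, 0.0123 and 0.00925 (PTKO) and 0.0148, 0.0157 and 0.0122 (fl/fl).

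Of 20 genes listed as depending on HNF4A in the proximal tubule, 19 were tested and most fell with it. Kidneys labelled PTKO had 16 called lower at each time, with median changes of -1.66 and -1.37. Kidneys of fl/fl mice had 18 called lower at 3 weeks and 17 at 6 weeks, with medians of -2.71 and -1.84, and none of the 19 was called higher in any of the 4 comparisons except 1 under quantile normalization in kidneys labelled PTKO. Nat8, an acetyltransferase of the cysteine conjugate pathway, averaged 24.9 ± 0.936 CPM in fl/fl kidneys at 3 weeks, against 285 ± 36.1 CPM under DMSO (SD, n = 3 each), a log2 change of -3.46 (limma, adjusted p = 6.14e-11). Apom, a lipid-binding apolipoprotein, averaged 4.90 ± 2.27 CPM at 3 weeks in the same kidneys, against 98.3 ± 13.9 CPM (limma, adjusted p = 3.28e-09). Slc22a8, the organic anion transporter OAT3, averaged 68.3 ± 33.5 CPM in fl/fl kidneys at 6 weeks, against 843 ± 103 CPM under DMSO (limma, adjusted p = 7.02e-08). The list shares Slc34a1, Lrp2, Cubn and Slc22a6 with the proximal tubule markers.

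Ppara (ENSMUSG00000022383.13, chr15:85734983-85802819, plus strand) had the largest fall of the 7 on the log2(CPM + 1) scale in each genotype at 3 weeks and at 6 weeks, although this order depended on the scale. By mean CPM Hnf4g kept less of its DMSO level than Ppara in kidneys labelled PTKO at 6 weeks (0.461 against 0.474) and in fl/fl kidneys at 3 weeks (0.242 against 0.271). Under quantile normalization the change of Hnf4g was also larger in kidneys labelled PTKO at 3 weeks (-1.66 against -1.43) and 6 weeks (-1.58 against -1.04) and in fl/fl kidneys at 3 weeks (-2.60 against -2.03). At 3 weeks it had 69.9, 106 and 150 CPM in the libraries labelled PTKO and 117, 58.9 and 55.8 CPM in fl/fl libraries. Ppara at 6 weeks had 158, 130 and 113 CPM in the libraries labelled PTKO and 50.6, 88.3 and 66.3 CPM in fl/fl libraries. Ppara under DMSO had 314, 281 and 250 CPM in the libraries labelled PTKO and 268, 280 and 306 CPM in fl/fl libraries. The genotypes overlapped at 3 weeks and under DMSO, and did not at 6 weeks, where the lowest PTKO library had 113 CPM and the highest fl/fl library 88.3 CPM. Ppara fell in kidneys labelled PTKO, with log2 changes of -1.43 ± 0.28 at 3 weeks (SE, limma, adjusted p = 0.000272) and -1.08 ± 0.28 at 6 weeks (0.00317). Corresponding changes in fl/fl kidneys were -1.95 ± 0.28 (limma, adjusted p = 9.17e-06) and -2.08 ± 0.28 (6.78e-06). Relative to the median of all genes these changes were -1.84 and -1.44 (PTKO) and -2.4 and -2.53 (fl/fl). The 6-week change in fl/fl kidneys ranked 104 from the lowest of the 14604 genes tested.

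Rxra (ENSMUSG00000015846.14, chr2:27676440-27762957, plus strand), the partner of both receptors, changed much less. Its 3-week level was 182, 183 and 215 CPM in the libraries labelled PTKO and 186, 164 and 155 CPM in fl/fl libraries. Its 6-week level was 177, 189 and 164 CPM in the libraries labelled PTKO and 148, 174 and 168 CPM in fl/fl libraries. Its DMSO level was 256, 235 and 255 CPM in the libraries labelled PTKO and 240, 244 and 236 CPM in fl/fl libraries. All AAI libraries lay below all DMSO libraries, and the genotypes overlapped in every treatment. Rxra fell in kidneys labelled PTKO, with log2 changes of -0.37 ± 0.09 at 3 weeks (SE, limma, adjusted p = 0.0019) and -0.49 at 6 weeks (0.000223). Its changes in fl/fl kidneys were -0.52 (limma, adjusted p = 7.77e-05) and -0.55 (4.81e-05). Relative to the median of all genes the Rxra changes were larger, -0.78 and -0.85 (PTKO) and -0.96 and -1.01 (fl/fl).

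Nr1h4 (ENSMUSG00000047638.15, chr10:89454234-89533585, minus strand) fell in both genotypes. At 3 weeks it had 57.9, 78.8 and 86.4 CPM in the libraries labelled PTKO and 93.0, 50.7 and 50.8 CPM in fl/fl libraries. Nr1h4 at 6 weeks had 106, 86.1 and 98.6 CPM in the libraries labelled PTKO and 43.0, 72.4 and 73.7 CPM in fl/fl libraries. Nr1h4 under DMSO had 187, 179 and 124 CPM in the libraries labelled PTKO and 176, 236 and 142 CPM in fl/fl libraries. The DMSO libraries themselves varied widely, and the 6-week PTKO libraries lay closest to them. The log2 changes in kidneys labelled PTKO were -1.12 at 3 weeks (limma, adjusted p = 0.00123) and -0.73 at 6 weeks (0.0225). Kidneys of fl/fl mice had changes of -1.53 (limma, adjusted p = 6.22e-05) and -1.55 (6.73e-05). Relative to the median of all genes the Nr1h4 changes were -1.53 and -1.09 (PTKO) and -1.97 and -2 (fl/fl). The 6-week PTKO call was lost without replicate 1 of PTKO DMSO (adjusted p = 0.0834), replicate 2 of PTKO DMSO (0.0707) or replicate 2 of PTKO at 6 weeks (0.07), and without the 3 libraries that stood apart (0.156).

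Within a library, Ppara and Nr1h4 fell against their partner Rxra. The ratio of Ppara to Rxra was 0.384, 0.579 and 0.699 (PTKO) and 0.628, 0.360 and 0.361 (fl/fl) at 3 weeks, 0.891, 0.687 and 0.689 (PTKO) and 0.342, 0.507 and 0.394 (fl/fl) at 6 weeks, and 1.22, 1.19 and 0.981 (PTKO) and 1.12, 1.15 and 1.3 (fl/fl) under DMSO. No AAI library reached a DMSO library. The ratio was 0.418 times that under DMSO at 3 weeks and 0.479 times at 6 weeks, both with the smallest p that the 400 arrangements allow (exact permutation test within genotype, two-sided, p = 0.005, adjusted over 8 ratio tests 0.0133). The ratio of Nr1h4 to Rxra was 0.318, 0.431 and 0.402 (PTKO) and 0.501, 0.310 and 0.328 (fl/fl) at 3 weeks, 0.598, 0.455 and 0.602 (PTKO) and 0.290, 0.416 and 0.438 (fl/fl) at 6 weeks, and 0.729, 0.759 and 0.486 (PTKO) and 0.731, 0.969 and 0.604 (fl/fl) under DMSO. At 6 weeks the libraries labelled PTKO overlapped with their DMSO libraries and the fl/fl libraries did not. Over both genotypes the Nr1h4 ratio was 0.539 times that under DMSO at 3 weeks (exact p = 0.005, adjusted 0.0133) and 0.65 times at 6 weeks (exact p = 0.02, adjusted 0.04). The 6-week value joins 0.847 times in kidneys labelled PTKO and 0.498 times in fl/fl kidneys, a difference between the genotypes that was not tested. At 6 weeks the call was lost without any of 9 of the 12 libraries, each left out alone, with adjusted p up to 0.08. Such a ratio does not depend on how libraries are scaled against each other, but it can change with the mix of cells in the cortex. Against the proximal tubule markers both genes rose in fl/fl kidneys at 3 weeks. Per 1000 CPM of those markers Ppara averaged 20.3 CPM, against 13.5 CPM under DMSO, and Nr1h4 17.3 CPM, against 8.70 CPM. The part of cell composition in the ratios to Rxra was not tested.

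**Figure D3:**
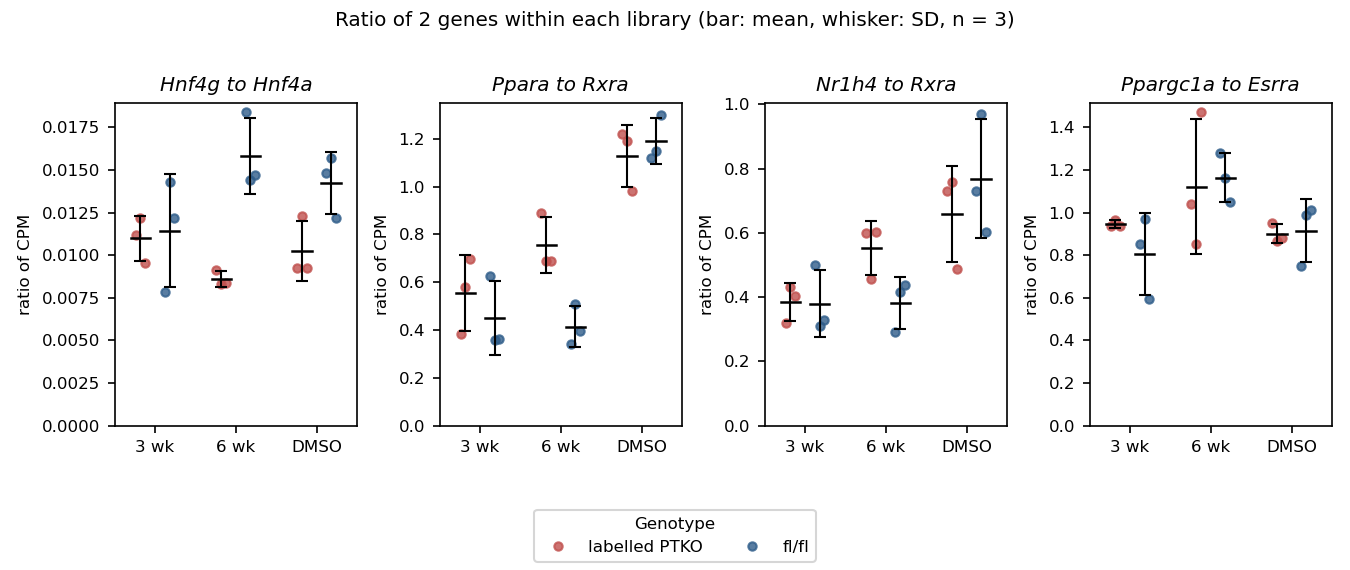
Ratio of CPM of 2 genes within each library (vertical axis, from 0) by treatment group, PTKO in red left of fl/fl in blue, with 1 point per library and the mean and SD of 3 libraries. For Ppara to Rxra all 12 AAI libraries lie below the 6 DMSO libraries, while for Hnf4g to Hnf4a the AAI and DMSO libraries overlap.

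Of 25 listed targets of PPAR alpha 24 were tested, and more were called lower than higher in each of the 4 comparisons with DMSO. Kidneys labelled PTKO had 14 called lower and 1 higher at 3 weeks, and 10 lower and 3 higher at 6 weeks (15 lower and 0 higher under median-of-ratios scaling), with medians of -0.69 and -0.18. Those of fl/fl mice had 18 called lower and 2 higher at 3 weeks, and 15 lower and 0 higher at 6 weeks, with medians of -1.11 and -0.80. Acaa1b, a peroxisomal thiolase, changed by -2.46 in fl/fl kidneys at 3 weeks (limma, adjusted p = 4.89e-09), and Acadvl, the very long chain acyl-CoA dehydrogenase, by -1.15 (adjusted p = 1.87e-07). Plin2, which coats lipid droplets, was among those that rose, by 2.02 in kidneys labelled PTKO at 3 weeks (limma, adjusted p = 1.15e-05).

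Of 13 listed targets of FXR 10 were tested, and in kidneys labelled PTKO 3 were called lower and 3 higher at 3 weeks, and 3 lower and 4 higher at 6 weeks. In fl/fl kidneys 5 were called lower and 3 higher at 3 weeks, and 5 lower and 4 higher at 6 weeks. The list does not separate genes that FXR raises from genes that it lowers, so the counts do not measure FXR activity. Of all genes tested, 57.2% and 53.7% were called higher in kidneys labelled PTKO at 3 and 6 weeks, and 58.0% and 59.8% in fl/fl kidneys. The shares called lower were 13.9% and 11.4% in kidneys labelled PTKO and 18.2% and 13.9% in fl/fl kidneys. The FXR list shares Aqp2 with the 3 collecting duct markers, all 3 of which were called higher at 6 weeks in both genotypes. Under median-of-ratios scaling the PTKO counts were 5 lower and 3 higher at 3 weeks and 4 of each at 6 weeks, and the fl/fl counts 6 lower and 3 higher at 3 weeks and 5 lower and 2 higher at 6 weeks. Under quantile normalization 4 were lower and 1 higher in kidneys labelled PTKO at 3 weeks, and 6 lower and 1 higher in fl/fl kidneys. Fgfr4, a receptor of bile acid signalling, changed by -1.14 in fl/fl kidneys at 3 weeks (limma, adjusted p = 2.88e-08), and Slc51b, a subunit of a bile acid exporter, by -1.65 (adjusted p = 1.07e-07). Abcc2, an apical conjugate transporter, averaged 155 ± 36.8 CPM in those kidneys, against 519 ± 37.5 CPM under DMSO (limma, adjusted p = 3.01e-07). Abcc4, another efflux transporter, rose to 142 ± 2.96 CPM in kidneys labelled PTKO at 3 weeks, against 53.3 ± 10.3 CPM under DMSO (SD, n = 3 each, limma, adjusted p = 1.17e-07).

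Esrra (ENSMUSG00000024955.14, chr19:6910977-6921813, minus strand) fell a little in CPM in every comparison with DMSO and varied least between libraries. Its 3-week level was 87.4, 89.0 and 84.9 CPM in the libraries labelled PTKO and 75.7, 75.1 and 80.3 CPM in fl/fl libraries. Its 6-week level was 97.3, 89.7 and 111 CPM in the libraries labelled PTKO and 80.8, 86.2 and 83.3 CPM in fl/fl libraries. Its DMSO level was 119, 126 and 119 CPM in the libraries labelled PTKO and 126, 124 and 116 CPM in fl/fl libraries. The DMSO libraries of both genotypes overlapped, and under AAI all libraries labelled PTKO lay above all fl/fl libraries of the same time. Esrra fell in kidneys labelled PTKO, with log2 changes of -0.47 ± 0.07 at 3 weeks (SE, limma, adjusted p = 3.35e-05) and -0.29 at 6 weeks (0.00292). For fl/fl kidneys the changes were -0.65 (limma, adjusted p = 7.25e-07) and -0.54 (8.36e-06). Relative to the median of all genes the Esrra changes were larger, -0.89 and -0.65 (PTKO) and -1.1 and -0.99 (fl/fl). The 6-week PTKO call was lost when the 3 libraries that stood apart were left out together (-0.19, adjusted p = 0.0637). Its exons share 73 bases with Trmt112 on the opposite strand and 91 bases with Mir6990 on the same strand.

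Ppargc1a (ENSMUSG00000029167.13, chr5:51454250-51567726, minus strand) was the one gene of the 7 not called lower at 6 weeks in either genotype. At 3 weeks it had 81.9, 86.0 and 79.4 CPM in the libraries labelled PTKO and 64.6, 72.8 and 47.6 CPM in fl/fl libraries. Ppargc1a at 6 weeks had 101, 76.5 and 163 CPM in the libraries labelled PTKO and 104, 99.6 and 87.7 CPM in fl/fl libraries. Ppargc1a under DMSO had 113, 109 and 105 CPM in the libraries labelled PTKO and 94.1, 122 and 116 CPM in fl/fl libraries. The 6-week libraries labelled PTKO held both the highest value of all 18 libraries and one below every DMSO library. Replicate 3 of PTKO at 6 weeks, the highest at 163 CPM, also had the highest sums of all 18 libraries for 3 thick ascending limb markers (12800 CPM) and 3 collecting duct markers (805 CPM). In kidneys labelled PTKO the 3-week change was -0.40 (95% interval -0.83 to 0.03, limma, adjusted p = 0.0871), although no library overlapped with DMSO, and it was called under median-of-ratios scaling (-0.85, adjusted p = 0.0013). Ppargc1a fell in fl/fl kidneys at 3 weeks, with a log2 change of -0.85 ± 0.20 (SE, limma, adjusted p = 0.00121). At 6 weeks the change was -0.01 in kidneys labelled PTKO (interval -0.44 to 0.42, limma, adjusted p = 0.959), and this was not called under any alternative tried, although it was -0.41 under median-of-ratios scaling (limma, adjusted p = 0.0872), -0.37 under TMM scaling (0.117) and -0.31 without PTKO replicate 3 (0.106). It was -0.19 in fl/fl kidneys (interval -0.61 to 0.24, limma, adjusted p = 0.414), called under median-of-ratios scaling (-0.67, adjusted p = 0.00702). Relative to the median of all genes the 3-week and 6-week changes were -0.82 and -0.37 (PTKO) and -1.3 and -0.64 (fl/fl).

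Over both genotypes the ratio of Ppargc1a to Esrra at 3 weeks was 0.957 times the DMSO ratio (exact permutation test within genotype, two-sided, p = 0.675, adjusted 0.735). This value joins opposite directions, 1.05 times in kidneys labelled PTKO and 0.871 times in fl/fl kidneys, given without a test. At that time the ratio was 0.937, 0.967 and 0.935 (PTKO) and 0.853, 0.970 and 0.593 (fl/fl), overlapping with DMSO in each genotype. At 6 weeks it was 1.04, 0.853 and 1.47 (PTKO) and 1.28, 1.16 and 1.05 (fl/fl), against 0.951, 0.868 and 0.882 (PTKO) and 0.747, 0.989 and 1.01 (fl/fl) under DMSO. All fl/fl libraries at 6 weeks were above all fl/fl DMSO libraries, while those labelled PTKO overlapped with their DMSO libraries. The ratio was 1.25 times that under DMSO (exact p = 0.03, adjusted 0.048), a call lost without any of 11 of the 12 libraries, each left out alone, with adjusted p up to 0.12.

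Most targets of ERR and PGC-1, largely respiratory chain and citric acid cycle genes, fell with Esrra. All 20 were tested, and in kidneys labelled PTKO 16 were called lower and 0 higher at 3 weeks, and 12 lower and 2 higher at 6 weeks, with medians of -0.55 and -0.34. In fl/fl kidneys 18 were called lower at 3 weeks and 14 at 6 weeks, with 0 higher and medians of -0.85 and -0.63. Under median-of-ratios scaling the 6-week PTKO counts were 17 lower and 0 higher, and under quantile normalization 7 lower and 2 higher, with 14 lower and 2 higher at 3 weeks. Ndufs1, a subunit of complex I, averaged 130 ± 21.4 CPM in fl/fl kidneys at 3 weeks, against 349 ± 8.82 CPM under DMSO (SD, n = 3 each, limma, adjusted p = 9.83e-08). Sod2, the mitochondrial superoxide dismutase, changed by -1.16 (limma, adjusted p = 1.41e-07) and Etfdh, which passes electrons from fatty acid oxidation to ubiquinone, by -1.34 (adjusted p = 2.79e-07) in the same kidneys.

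**Figure D4:**
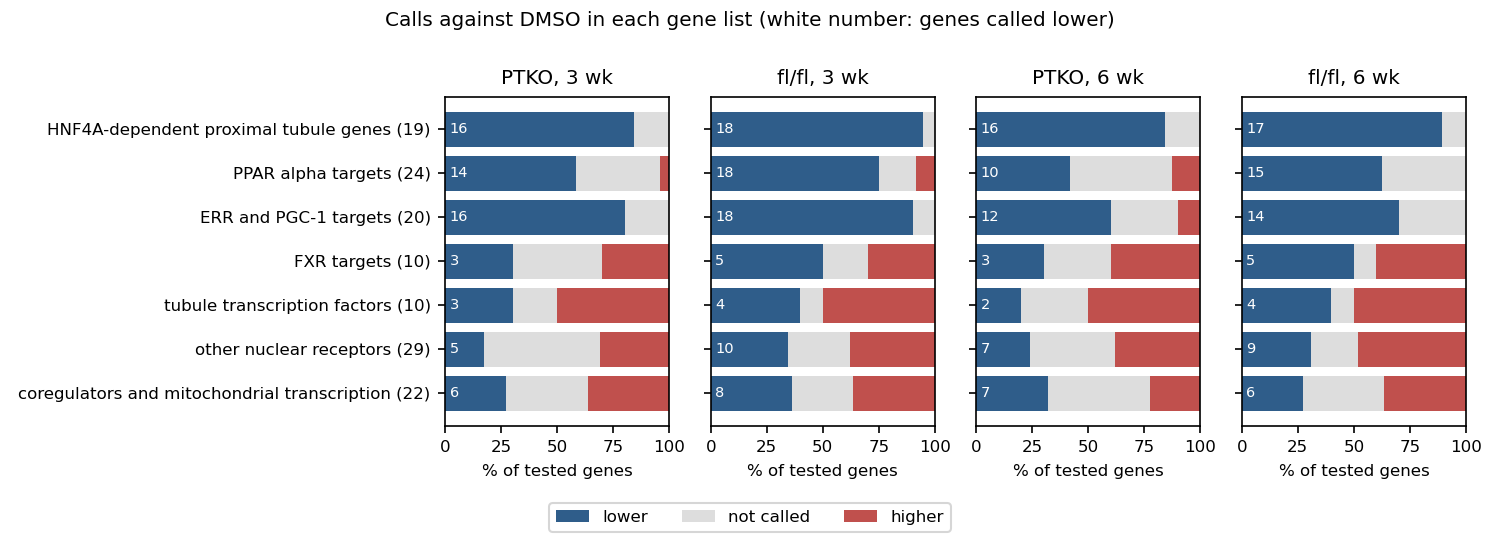
Share of the tested genes of each list (number tested in brackets) called lower (blue, with the count in white), not called (grey) or higher (red) against DMSO, in percent, for PTKO left of fl/fl at 3 weeks and at 6 weeks. The HNF4A list is mostly blue in all 4 panels, while the lists of other nuclear receptors, coregulators and tubule transcription factors hold both colours, with splits that shift towards lower under median-of-ratios scaling, except for the tubule transcription factors in fl/fl at 6 weeks.

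Other regulators of the tubule did not all move with these 7 genes. The counts of higher genes are again to be read against the 53.7% to 59.8% of all genes called higher. Of 10 tubule transcription factors, 3 were called lower and 5 higher at 3 weeks and 2 lower and 5 higher at 6 weeks in kidneys labelled PTKO, and 4 lower and 5 higher at each time in fl/fl kidneys. Under median-of-ratios scaling these counts were 4 of each at 3 weeks and 3 lower and 4 higher at 6 weeks in kidneys labelled PTKO, and 5 lower and 4 higher at 3 weeks and 4 lower and 5 higher at 6 weeks in fl/fl kidneys. Sox9, a factor of injured and regenerating tubule cells, rose to 33.9 ± 2.24 CPM in fl/fl kidneys at 3 weeks, against 1.04 ± 0.46 CPM under DMSO (SD, n = 3 each, limma, adjusted p = 5.78e-10), and Sox4 to 80.6 ± 7.78 CPM, against 9.03 ± 2.85 CPM (adjusted p = 1.43e-08). Pax8, a factor of developing and adult tubule, rose by 1.19 in kidneys labelled PTKO at 3 weeks (limma, adjusted p = 2.3e-06).

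Of 32 other nuclear receptors 29 were tested, and their split depended on scaling. In kidneys labelled PTKO 5 were called lower and 9 higher at 3 weeks (14 and 5 under median-of-ratios scaling), and 7 lower and 11 higher at 6 weeks (11 and 4). Fl/fl kidneys had 10 called lower and 11 higher at 3 weeks (18 and 5), and 9 lower and 14 higher at 6 weeks (11 and 5). Thrb, a thyroid hormone receptor, averaged 17.2 ± 0.817 CPM in fl/fl kidneys at 3 weeks, against 68.0 ± 7.59 CPM under DMSO (SD, n = 3 each, limma, adjusted p = 1.2e-08). Rarg, a retinoic acid receptor and also a partner of RXR, rose to 64.0 ± 8.32 CPM in those kidneys, against 17.8 ± 1.53 CPM (limma, adjusted p = 5.35e-08). Of 22 coregulators and factors of mitochondrial transcription, 6 were called lower and 8 higher in kidneys labelled PTKO at 3 weeks (13 and 2 under median-of-ratios scaling), and 7 lower and 5 higher at 6 weeks (12 and 2). Fl/fl kidneys had 8 called lower and 8 higher at 3 weeks (14 and 3), and 6 lower and 8 higher at 6 weeks (13 and 3). Sirt3, the mitochondrial deacetylase, averaged 23.1 ± 2.39 CPM in fl/fl kidneys at 3 weeks, against 81.7 ± 2.89 CPM under DMSO (SD, n = 3 each, limma, adjusted p = 4.7e-08). Pprc1, a relative of Ppargc1a, rose to 57.5 ± 8.58 CPM in the same kidneys, against 20.6 ± 1.03 CPM (limma, adjusted p = 1.27e-06).

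The comparison of the genotypes asks whether these regulators had other levels in kidneys labelled PTKO, a label that Klf6 RNA of whole cortex does not check. Under DMSO limma called 0 of the 7 genes (0.288% of all genes tested were called in either direction), and 0 of the 7 had an unadjusted p under 0.05. The nearest was Hnf4g, at -0.35 (95% interval -0.71 to 0.01, limma, adjusted p = 0.785). At 3 weeks of AAI 2 of the 7, Hnf4a and Hnf4g, were higher in kidneys labelled PTKO than in fl/fl kidneys (6.22% of all genes called higher, 6.80% under median-of-ratios scaling). At 6 weeks a different pair, Ppara and Esrra, was called higher (3.27% of all genes called higher, 5.55% under median-of-ratios scaling). No gene of the 7 was called lower in kidneys labelled PTKO at either time. The calls over all genes depended on which library was left out. In either direction they numbered 2077 at 3 weeks. They fell to 360 without PTKO replicate 2, 424 without fl/fl replicate 3, 813 without PTKO replicate 3 and 1005 without fl/fl replicate 2. They rose to 2517 without fl/fl replicate 1 and 2377 without PTKO replicate 1. At 6 weeks they numbered 2198, with 441 without fl/fl replicate 1, 841 without fl/fl replicate 3, 1107 without PTKO replicate 1 and 3765 without fl/fl replicate 2. Without PTKO replicates 2 and 3, each left out alone, they were 1915 and 1700. In a fit of the compared groups alone the calls over all genes were 1411 at 3 weeks and 163 at 6 weeks.

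**Figure D5:**
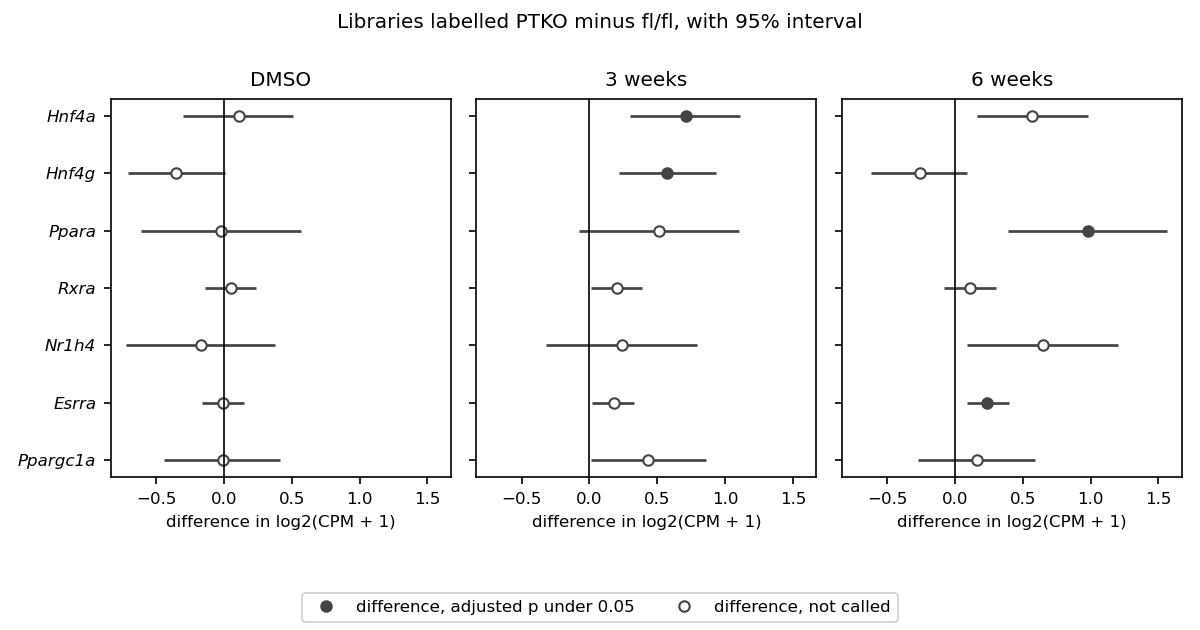
PTKO minus fl/fl difference of each gene in log2(CPM + 1) (horizontal axis) with its 95% interval, under DMSO, at 3 weeks and at 6 weeks, filled where the adjusted p was under 0.05. Filled points are Hnf4a and Hnf4g at 3 weeks and Ppara and Esrra at 6 weeks, all to the right of 0.

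At 3 weeks Hnf4a averaged 609 ± 33.0 CPM in kidneys labelled PTKO and 385 ± 119 CPM in fl/fl kidneys (SD, n = 3 each), a difference of 0.71 (95% interval 0.30 to 1.11, limma, adjusted p = 0.025) with no overlap. The call was lost without fl/fl replicate 2 (adjusted p = 0.0654), fl/fl replicate 3 (difference 0.48, adjusted p = 0.148), PTKO replicate 2 (0.108) or PTKO replicate 3 (0.0656), and in a fit of these 2 groups alone (0.067, limma). Hnf4g averaged 6.73 ± 1.14 CPM in kidneys labelled PTKO and 4.22 ± 1.03 CPM in fl/fl kidneys, a difference of 0.57 (interval 0.22 to 0.93, limma, adjusted p = 0.0347), also with no overlap. Its call was lost without fl/fl replicate 1 (adjusted p = 0.0628), fl/fl replicate 3 (0.179), PTKO replicate 1 (0.0558) or PTKO replicate 2 (0.168), in a fit of the 2 groups alone (0.0869) and with no filter on low genes (0.0554, limma). Libraries also did not overlap for Esrra and Ppargc1a, which makes 4 of 7 genes wholly higher in kidneys labelled PTKO (14.5% of all genes tested). The differences of Esrra (0.18, limma, adjusted p = 0.121, with DESeq2 0.0338) and Ppargc1a (0.43, adjusted p = 0.16) were not called, nor were those of Ppara (0.51, adjusted p = 0.235), Rxra (0.20, adjusted p = 0.146) and Nr1h4 (0.24, adjusted p = 0.581). Without fl/fl replicate 1 the Ppara difference was 0.84 and was called (limma, adjusted p = 0.0349).

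At 6 weeks Ppara averaged 133 ± 22.5 CPM in kidneys labelled PTKO and 68.4 ± 18.9 CPM in fl/fl kidneys (SD, n = 3 each), a difference of 0.98 (95% interval 0.39 to 1.56, limma, adjusted p = 0.0296). The call was lost without fl/fl replicate 1 (difference 0.78, adjusted p = 0.151), fl/fl replicate 3 (0.0839), PTKO replicate 1 (0.103) or PTKO replicate 2 (0.0544), and in a fit of the 2 groups alone (0.0682, limma). Esrra averaged 99.4 ± 10.9 CPM in kidneys labelled PTKO and 83.4 ± 2.66 CPM in fl/fl kidneys, a difference of 0.24 (interval 0.09 to 0.40, limma, adjusted p = 0.0365). Its call was lost without fl/fl replicate 1 (adjusted p = 0.145), fl/fl replicate 3 (0.0993), PTKO replicate 1 (0.0738) or PTKO replicate 3 (difference 0.16, adjusted p = 0.121), and in a fit of the 2 groups alone (0.207, limma). Ppara, Nr1h4 and Esrra did not overlap between the genotypes, 3 of 7 genes (6.59% of all genes tested). Hnf4a, at 0.57 (limma, adjusted p = 0.0556), was called under median-of-ratios scaling (0.69, adjusted p = 0.0464), without fl/fl replicate 2 (0.75, adjusted p = 0.0126) and without PTKO replicate 3 (0.69, adjusted p = 0.0457). Nr1h4 differed by 0.65 (adjusted p = 0.102), Rxra by 0.11 (0.422), Ppargc1a by 0.16 (0.623) and Hnf4g by -0.26 (0.299, limma), none of them called.

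Some of their targets, in lists chosen with earlier results of these data known, were called higher in kidneys labelled PTKO. At 3 weeks, when 6.22% of all genes were called higher, 11 of 19 genes of the HNF4A list, 11 of 24 PPAR alpha targets, 8 of 20 ERR and PGC-1 targets and 3 of 10 FXR targets were called higher, and none of these lists had a gene called lower. At 6 weeks, with 3.27% of all genes called higher, the counts were 4 of 19, 4 of 24, 11 of 20 and 2 of 10, again with none lower, and under median-of-ratios scaling they were 6, 6, 14 and 3. With the 3 libraries that stood apart left out they were 7, 5, 16 and 3, while calls over all genes in either direction also rose, from 2198 to 3068. Cyp4a10, a fatty acid hydroxylase, differed by 2 at 3 weeks (limma, adjusted p = 0.00373), and Slc10a2, the apical bile acid transporter, by 1.83 (adjusted p = 0.00341). Slc10a2 is of the FXR list, which gives no direction of regulation, so its rise does not measure FXR activity. At 6 weeks Slc22a8 averaged 237 ± 29.2 CPM in kidneys labelled PTKO and 68.3 ± 33.5 CPM in fl/fl kidneys (SD, n = 3 each, limma, adjusted p = 0.00254), Eci1, an enoyl-CoA isomerase that was already higher in PTKO under DMSO (0.61, adjusted p = 0.0192), differed by 0.92 (adjusted p = 0.000205), and Sdhb, a subunit of complex II, by 0.56 (adjusted p = 0.00529). Proximal tubule markers were called higher in kidneys labelled PTKO for 6 of 8 genes at 3 weeks and 3 of 8 at 6 weeks. Macrophage markers were called lower for 6 of 7 and 4 of 7, and fibroblast markers for 0 of 6 and 5 of 6, at 3 and 6 weeks. The part of these cell types in the genotype differences was not tested.

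Whether the response to AAI differed between the genotypes was tested as an interaction. Limma called 0 of the 7 genes at 3 weeks (0.281% of all genes tested called in either direction) and 0 at 6 weeks (0.0685%). The lowest adjusted p-values of the 7 (limma) were 0.0745 (Hnf4g) and 0.251 (Hnf4a) at 3 weeks. At 6 weeks they were 0.278 (Ppara), 0.297 (Esrra) and 0.328 (Nr1h4). EdgeR on recovered reads called 0 at both times, and DESeq2 called 1 at 3 weeks and 0 at 6 weeks. Over all genes DESeq2 called 588 at 3 weeks and 89 at 6 weeks, against 41 and 10 by limma. The change of Hnf4g against DMSO at 3 weeks was smaller in kidneys labelled PTKO by 0.92 (95% interval 0.42 to 1.43, limma, adjusted p = 0.0745), and DESeq2 called it (adjusted p = 0.0131). The change of Ppara at 6 weeks was smaller by 1 (interval 0.16 to 1.83, limma, adjusted p = 0.278).

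Between 6 and 3 weeks few of the 7 genes were called. In fl/fl kidneys 2 of the 7, Hnf4g and Ppargc1a, were higher at 6 than at 3 weeks (7.16% of all genes called higher, 5.75% under median-of-ratios scaling). Hnf4g averaged 7.63 ± 1.08 CPM at 6 weeks and 4.22 ± 1.03 CPM at 3 weeks (SD, n = 3 each), a difference of 0.74 (limma, adjusted p = 0.0118). The call was lost without 3-week replicate 3 (adjusted p = 0.0666) or 6-week replicate 2 (0.0648) and in a fit of the 2 groups alone (0.0642, limma). Ppargc1a averaged 96.9 ± 8.25 CPM at 6 weeks and 61.7 ± 12.9 CPM at 3 weeks, a difference of 0.66 (limma, adjusted p = 0.0412). Its call was lost without 3-week replicate 1 (adjusted p = 0.0608) or 3 (0.191), or without 6-week replicate 1 (0.0897), 2 (0.13) or 3 (0.0507, limma). The 3 thick ascending limb markers summed to 3220 to 7650 CPM at 6 weeks and 1620 to 3230 CPM at 3 weeks in fl/fl kidneys, with 2 of 3 called higher, while 1 of 8 proximal tubule markers was. The sums in kidneys labelled PTKO were 5350 to 12800 CPM at 6 weeks and 3080 to 5200 CPM at 3 weeks, with 1 of 3 called higher, and the part of these cells in the changes was not tested. Hnf4a, uncalled at 0.37 (adjusted p = 0.208), was called without 3-week replicate 1 (0.59, adjusted p = 0.045, limma). In these kidneys Hnf4g, Esrra and Ppargc1a were wholly higher at 6 weeks (16.6% of all genes tested). In kidneys labelled PTKO limma called 0 of the 7 genes between 6 and 3 weeks (11.2% of all genes in either direction). Esrra, with a difference of 0.18 (limma, adjusted p = 0.116), was the 1 gene wholly higher at 6 weeks (9.80% of all genes tested). Without replicate 2 of PTKO at 6 weeks, Esrra (adjusted p = 0.0439) and Ppargc1a (adjusted p = 0.04, limma) were called. The genotype difference in this change was called for 0 of the 7 genes and 0% of all genes tested, Hnf4g being nearest (difference -0.84, limma, adjusted p = 0.334). By edgeR and by DESeq2 the count was also 0. Calls over all genes between the times, 1633 in kidneys labelled PTKO and 1932 in fl/fl kidneys, also depended on the library left out. They became 536, 666 and 785 without PTKO 3-week replicate 1, 3-week replicate 3 and 6-week replicate 1, and 642, 643 and 1213 without fl/fl 3-week replicate 3, 6-week replicate 2 and 3-week replicate 2. Without each of the other libraries they were 1180 to 1623 in kidneys labelled PTKO and 1670 to 1917 in fl/fl kidneys. A fit of the compared groups alone gave 367 in kidneys labelled PTKO and 562 in fl/fl kidneys.

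Ordered by group mean, every gene but Ppargc1a had its 2 DMSO groups at the top, overlapping with each other, and no overlap with the group next in order. Below DMSO, the order for Hnf4a was PTKO at 6 weeks (720 CPM), PTKO at 3 weeks (609 CPM), fl/fl at 6 weeks (491 CPM) and fl/fl at 3 weeks (385 CPM), with each neighbouring pair overlapping. Rxra, Ppara and Nr1h4 also had both PTKO groups above both fl/fl groups under AAI, again with each neighbouring pair overlapping. For Hnf4g the order was fl/fl at 6 weeks (7.63 CPM), PTKO at 3 weeks (6.73 CPM), PTKO at 6 weeks (6.20 CPM) and fl/fl at 3 weeks (4.22 CPM), each pair overlapping. Esrra separated PTKO at 6 weeks (99.4 CPM) from PTKO at 3 weeks (87.1 CPM), which overlapped with fl/fl at 6 weeks (83.4 CPM). Ppargc1a had PTKO at 6 weeks first (114 ± 44.6 CPM), overlapping with fl/fl DMSO (111 ± 14.8 CPM).

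Per kilobase of exon, mean levels under fl/fl DMSO were 253 CPM for Hnf4a, 80.3 CPM for Nr1h4, 74.3 CPM for Ppara, 43.9 CPM for Rxra, 27.8 CPM for Esrra, 16.8 CPM for Ppargc1a and 6.62 CPM for Hnf4g. In fl/fl kidneys at 3 weeks the levels per kilobase were 79.7 CPM for Hnf4a, 30.8 CPM for Rxra, 28.1 CPM for Nr1h4, 20.1 CPM for Ppara, 17.6 CPM for Esrra, 9.36 CPM for Ppargc1a and 1.60 CPM for Hnf4g. In RNA of whole cortex the mean of Rxra per kilobase thus stood below those of both partners under fl/fl DMSO and above both in fl/fl kidneys at 3 weeks, without a test. It was also above both in fl/fl kidneys at 6 weeks and in kidneys labelled PTKO at 3 weeks. In kidneys labelled PTKO at 6 weeks Rxra (32.4 CPM) stayed below Nr1h4 (42 CPM) and Ppara (34.7 CPM). The order also depends on exon length, since without it Rxra (240 CPM) already exceeded Nr1h4 (185 CPM) under fl/fl DMSO.

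The genes whose 6 group means lay nearest to those of a member, by root mean square distance in log2(CPM + 1) after each gene was centred, were Grhpr (0.046), Slc25a15 (0.048) and Aadac (0.051) for Hnf4a. Grhpr is an enzyme of glyoxylate metabolism and Slc25a15 the mitochondrial ornithine carrier. For Ppara the nearest were Dpep1 (0.121), a brush border dipeptidase, Cpne4 (0.122) and Prodh (0.146), the mitochondrial proline dehydrogenase. For Hnf4g they were Enpp3 (0.076), Map2k6 (0.085) and Decr1 (0.109), for Nr1h4 Tmem205 (0.067), Ell3 (0.078) and Cda (0.094), and for Rxra Sec24a (0.028), Pla2g6 (0.031) and Mtmr12 (0.038). For Esrra they were Lamtor5 (0.033), Thoc7 (0.033) and Slc25a11 (0.034), and for Ppargc1a Lzts3 (0.038), Selt (0.051) and Agbl3 (0.063). Each distance is over 6 groups of 3 libraries. Among the members themselves Esrra and Rxra lay nearest (0.104) and then Hnf4a and Nr1h4 (0.167). The distance is not scaled by the size of the changes, so genes that change little lie near each other whatever their pattern. From 3 to 6 weeks in kidneys labelled PTKO Esrra and Rxra moved in opposite directions (0.18 and -0.13, neither called).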

How the data were processed

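Stranded total RNA libraries of kidney cortex were made with a TruSeq kit, per the labels' protocols. Per the submitters' processing notes the authors used bcl2fastq 2.19, kallisto and mm10, with roles and order not given in the sources used here. The deposited values are CPM. All 433116 values (100%) came within 0.01 read of a whole number, so reads were recovered. A gene was kept if 3 or more libraries reached 1 CPM (14604 of 24062), log2(CPM + 1) was fitted with limma 3.58.1 (R 4.3.3) over 6 group means with a variance trend (12 residual degrees of freedom), and p-values were adjusted by Benjamini-Hochberg over all genes tested in each of 12 comparisons. A call is an adjusted p under 0.05, two-sided. Ratios of 2 genes were tested by exact permutation within genotype. An exact 0 in a library allows up to 3 reads of its total, counting error only.

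Alternatives were pseudocount, filters, median-of-ratios, TMM and quantile scaling, no variance trend, a replicate block, the compared groups alone, each library left out, and edgeR 4.0.16 and DESeq2 1.42.0 on recovered reads. On recovered reads edgeR called 10361 genes in fl/fl kidneys at 3 weeks of AAI, against 11117 by limma. Methods were tested on simulated data. For limma few genes were changed in that simulation, unlike the many called against DMSO, so it does not bear on those calls. The members and gene lists were chosen with earlier results of these data known. Other genes were named as up to 3 per list and comparison with the smallest adjusted p among those called. Gene positions are from GENCODE M21 (mm10), promoters from RefSeq (GRCm38.p6). Results of some genes are not reported here, although list counts include them.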

Additional observations from a re-analysis of the deposited data

How the results depend on the processing

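The falls against DMSO kept their counts within 1.5 times under the 12 settings that leave no single library out: 6 to 7 genes at 3 weeks and 4 to 6 at 6 weeks in kidneys labelled PTKO, and 7 at 3 weeks and 6 to 7 at 6 weeks in fl/fl kidneys. The genotype and time comparisons depended on the settings. At 3 weeks the 2 genes called between the genotypes became 1 with no filter and 0 in a fit of the compared groups alone, and 0 to 2 with single libraries left out. At 6 weeks the 2 became 1 with no variance trend and 0 in the compared groups alone, and 0 to 3 with single libraries left out. Over all genes the compared groups alone had 1411 calls between the genotypes at 3 weeks and 163 at 6 weeks, against 2077 and 2198. For 6 against 3 weeks in fl/fl kidneys the 2 became 1 with no filter, 1 with no variance trend, 0 in the compared groups alone, 0 without the 3 libraries that stood apart, and 0 to 2 with single libraries left out. Over all genes the calls of that comparison fell from 1932 to 562 in the compared groups alone and to 571 without those 3 libraries. In kidneys labelled PTKO the 0 became 1 under TMM, quantile normalization, DESeq2 and without those 3 libraries, and 0 to 2 with single libraries left out. The 3-week interaction went to 1 with DESeq2. The Nr1h4 to Rxra ratio at 6 weeks was -0.72 to -0.53 with single libraries left out (-0.70 to -0.53 where the call was lost), and that of Ppargc1a to Esrra 0.21 to 0.41 (0.21 to 0.36 where it was lost). The cause was not tested. In all, 42 values of single genes lost and 29 gained a call. Signs changed in 43 cases, all among values called in neither setting.

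Replicate numbers were not taken to pair the libraries, since the labels do not say that they do. Of 27 pairs with the same number 6 correlated above 0.1 (range -0.372 to 0.236), which cannot show that no pairing exists. With a replicate block the calls became 1 for the genotypes at 6 weeks, 1 for 6 against 3 weeks in fl/fl kidneys and 1 for the 3-week interaction (Hnf4g, limma, adjusted p = 0.0346), and the other 9 counts did not change. Over all genes the 3-week interaction had 74 calls with the block and 41 without it. Groups of 3 libraries and, for Hnf4g, as few as 76 reads limit the precision.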
